A study of Mus musculus with 2 samples.

Results

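The genes described here are 53 homeobox transcription factor genes that lie outside the Hox clusters. They were chosen by name, with earlier results of these data already known. They fall into the LIM (12 genes), paired-type (12), NK (6), Irx (6), Six-family (5) and TALE (5) groups. A further 6 genes of the Antennapedia class (En, Emx, Gbx and Barx) and Prox1, of the Prospero type, fit none of these. On Affymetrix Mouse Genome 430 2.0 arrays they were represented by 86 of 45101 probe sets, all found under their present symbols, and they are 53 of the 18194 genes named by a probe set with 1 symbol. The RNA was total RNA of wild-type whole mouse embryos at E14.5, with no treatment, and it was measured on duplicate arrays. With a single condition there was no contrast between groups to test. The E14.5 embryos of the study were of the NMRI or the C57/BL6 strain, and the sources used here do not say which one the arrays used, nor whether the duplicates were separate embryos, so their spread may be technical only.

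Homeobox genes encode proteins with a homeodomain, a DNA-binding fold of helices of which the last lies in the major groove of DNA and reads a short, AT-rich core. Many homeodomain proteins find their targets only together with partners, such as the Pbx and Meis proteins that bind beside Hox proteins, or the Ldb adaptors that join LIM homeodomain proteins into larger complexes. In the embryo they give regions and cell types their identity, and most are transcribed in restricted territories such as a brain segment, a limb bud or an organ primordium.

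Of the 53 genes, 35 (66.0%) had a signal above background on both arrays. Over all 18194 genes the share was 65.5%, so the members passed about as often as any gene on the array. Background was read from 81 probe sets of sensory receptor genes (olfactory, vomeronasal and bitter taste). Their signal in whole-embryo RNA was assumed to be background, and their 95th percentile on each array served as its bound. This came to 27.9 for array 1 and 33.8 for array 2, on a scale where each array's trimmed mean is 100, and 3 of the 73 receptor genes passed on both. A gene was counted if any probe set of it passed on array 1 and any on array 2. Many of the members that passed lay close to the bound. Of the 35, 17 (48.6%) did not reach 2 times the bound on both arrays, against 20.9% of the 11925 genes above background in all. The median signal, taken on the lower array, was 1.42 times the bound for the 53 members and 2.16 times the bound for all genes. The embryo was taken whole, and fewer expressing cells and less RNA per cell cannot be told apart in these signals.

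The number of probe sets per gene moved with these counts. Among genes with 1 probe set, 19 of 34 members passed (55.9%), against 48.6% of all such genes. With 2 probe sets 9 of 11 members passed (81.8%), against 76.1% of all genes with 2. Of the members with 3 probe sets 3 of 4 passed, where the share over all genes was 87.4%, and all 4 members with 4 or more passed, where it was 93.6%. Weighted by the members' own numbers of probe sets, the shares over all genes came to 60.6%. The shares under 2 times the bound and the median signals were not weighted in this way. A single probe set stood for 34 of 53 members and for 9182 of 18194 genes. Signals of different probe sets were not compared as levels of transcript, since each responds in its own way.

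**Figure D1:**
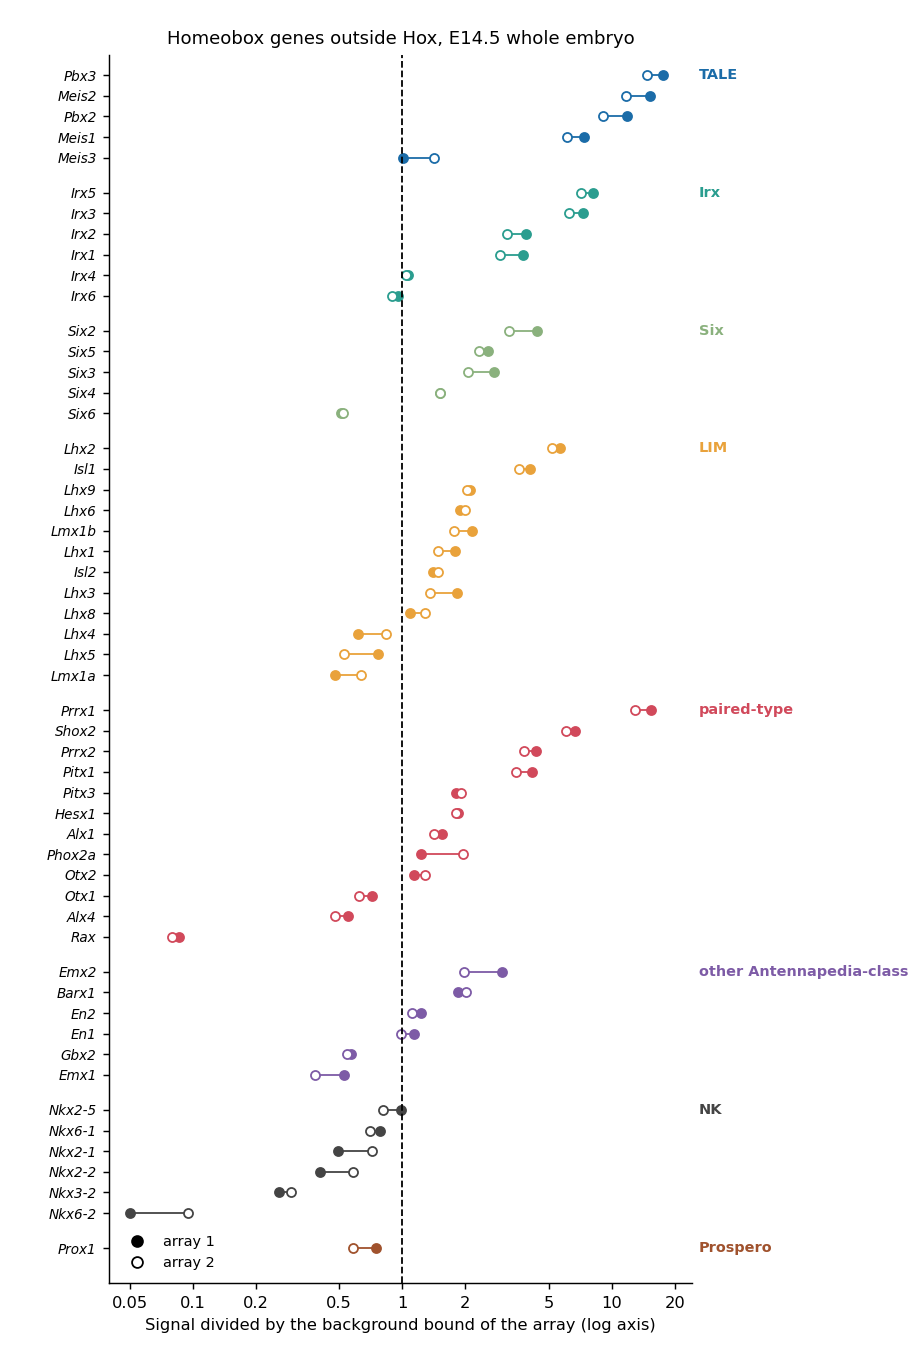
Signal of the probe set with the highest mean for each of the 53 genes as a multiple of the bound (log axis), with filled points for array 1, open points for array 2 and genes grouped by subfamily. The dashed line marks the bound; 4 of 5 TALE genes lie at least 2 times above it, and all 6 NK genes lie to its left on both arrays.

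The subfamilies differed in how many genes passed. All 5 TALE genes, 5 of 6 Irx genes, 4 of 5 Six-family genes, 9 of 12 LIM genes and 9 of 12 paired-type genes were above background on both arrays. Of the other Antennapedia-class genes 3 of 6 passed, of the NK genes 0 of 6, and Prox1 did not. The number of probe sets varied between the subfamilies, with 1 for each Irx and NK gene and 2 to 4 for 4 of the 5 TALE genes, and its part in these counts was not tested. No test was made of these differences, as there is 1 condition and the genes are not replicates.

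**Figure D2:**
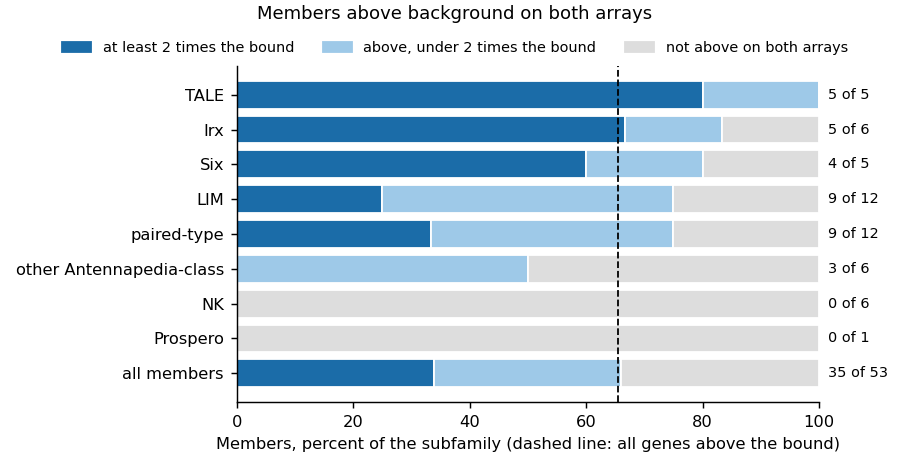
Share of the genes of each subfamily, in percent, with signals at least 2 times the bound on both arrays (dark), above the bound but under 2 times it on at least 1 array (light) or not above it on both arrays (grey), with the numbers above it at the right. The dashed line is the 65.5% of all genes above the bound; the TALE, Irx and Six-family bars reach 100%, 83.3% and 80.0%.

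The sequence in front of these genes was examined beside the calls. RefSeq promoters of GRCm38.p6 matched 42 of the 53 genes, and the 250 bases before the start were used, from the first promoter listed for a gene. The median GC content was 63.2% for the members and 55.2% for 17492 protein-coding genes, and the median ratio of observed to expected CpG was 0.68 for the members and 0.54 for all. Promoters with a ratio over 0.6 and a GC content over 50% were found for 24 of 42 members (57.1%) and for 41.5% of all protein-coding genes. This CpG density did not separate the members by signal, with 16 of 29 members above background on both arrays (55.2%) and 8 of 13 of the others (61.5%). The homeodomain core TAATTA, which reads the same on both strands, stood in 2 of 42 member promoters (4.76%), those of Prrx1 and Otx2, and in 4.45% of all. A further core, TAATCC, or GGATTA on the other strand, stood in 1 of 42 (2.38%), that of Isl1, and in 5.95% of all. The Meis-type core TGACAG, or CTGTCA on the other strand, stood in 9 of 42 (21.4%) and in 15.5% of all. The 9 were Six2, Six3, Six5, Six6, Lhx1, Lhx9, Nkx2-5, Nkx3-2 and En1. Of these, 5 were above background on both arrays, beside 29 of all 42. These are matches of letters and not sites of binding.

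Promoters of 3 members above the bound and 3 below it are shown as examples of how far CpG density varied among both. They were taken by signal over the bound among the genes with a matched promoter, with 1 gene per subfamily on each side. Pbx3 and Irx5, which lay farther above the bound than Meis2 and Irx3, had no matched promoter. Values below the bound carry no order. The promoters are written 5′ to 3′ on the strand of the gene, with each CpG in capitals.
Prrx1 (GRCm38.p6, chr1:163313651-163313900, minus strand): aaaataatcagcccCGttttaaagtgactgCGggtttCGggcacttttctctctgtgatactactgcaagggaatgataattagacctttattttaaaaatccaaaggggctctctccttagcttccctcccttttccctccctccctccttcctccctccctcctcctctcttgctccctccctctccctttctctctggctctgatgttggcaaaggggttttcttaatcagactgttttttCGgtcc
Meis2 (GRCm38.p6, chr2:116064620-116064869, minus strand): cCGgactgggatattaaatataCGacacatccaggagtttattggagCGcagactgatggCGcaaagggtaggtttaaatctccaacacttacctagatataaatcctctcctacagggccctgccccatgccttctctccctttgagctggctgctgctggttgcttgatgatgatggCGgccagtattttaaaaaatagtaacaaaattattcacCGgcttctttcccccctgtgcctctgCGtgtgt
Irx3 (GRCm38.p6, chr8:91801655-91801904, minus strand): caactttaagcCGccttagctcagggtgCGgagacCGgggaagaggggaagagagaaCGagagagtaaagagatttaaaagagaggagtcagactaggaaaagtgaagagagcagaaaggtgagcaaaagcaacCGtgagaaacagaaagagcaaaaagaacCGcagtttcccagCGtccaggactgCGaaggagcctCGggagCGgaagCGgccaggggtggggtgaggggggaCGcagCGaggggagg
Nkx6-2 (GRCm38.p6, chr7:139582798-139583047, minus strand): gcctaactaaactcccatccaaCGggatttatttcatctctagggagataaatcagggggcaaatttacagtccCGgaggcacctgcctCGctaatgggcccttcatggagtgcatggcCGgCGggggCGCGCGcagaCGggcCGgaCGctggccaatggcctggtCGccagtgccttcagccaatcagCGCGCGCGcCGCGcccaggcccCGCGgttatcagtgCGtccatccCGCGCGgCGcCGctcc
Emx1 (GRCm38.p6, chr6:85187681-85187930, plus strand): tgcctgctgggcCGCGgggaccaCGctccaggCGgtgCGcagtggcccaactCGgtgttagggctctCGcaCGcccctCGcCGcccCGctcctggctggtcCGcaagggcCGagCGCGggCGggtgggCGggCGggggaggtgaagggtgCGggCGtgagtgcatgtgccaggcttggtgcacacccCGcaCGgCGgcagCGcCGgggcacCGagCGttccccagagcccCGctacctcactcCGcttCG
Lmx1a (GRCm38.p6, chr1:167689308-167689557, plus strand): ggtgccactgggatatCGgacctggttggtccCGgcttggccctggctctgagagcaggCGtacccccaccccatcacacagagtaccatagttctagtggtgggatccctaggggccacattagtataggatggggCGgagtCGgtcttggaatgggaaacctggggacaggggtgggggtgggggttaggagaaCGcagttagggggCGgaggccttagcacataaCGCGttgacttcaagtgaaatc
Of the genes shown, Prrx1, Meis2 and Irx3, all above the bound, had 4, 7 and 13 CpG in these 250 bases, and Nkx6-2, Emx1 and Lmx1a, all below it, had 26, 30 and 9. The order of these 6 does not hold for the members as a whole. Pbx2, Lhx2, Isl1 and Six2, which also passed, had 27, 25, 33 and 26 CpG. The counts ran from 2 to 40 in the 29 members above the bound on both arrays and from 8 to 30 in the other 13. The Prrx1 stretch holds the TAATTA core.

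**Figure D3:**
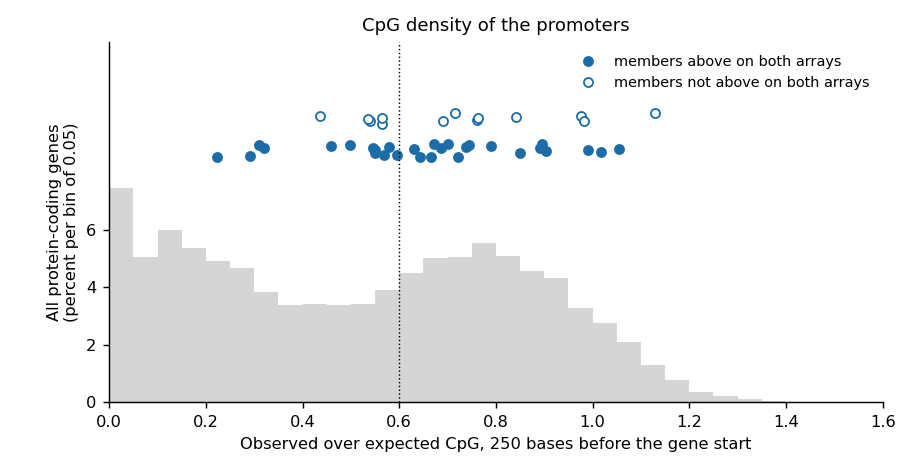
Ratio of observed to expected CpG in the 250 bases before the start of the gene (horizontal axis) for 29 members above background on both arrays (filled), 13 members that were not (open) and all 17492 protein-coding genes (grey, percent of promoters per bin). The dotted line marks 0.6; filled and open points overlap over most of their range, and the vertical position of the points carries no value.

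TALE genes, whose name refers to an extended loop in the homeodomain, all passed, 4 of them at 6.08 times the bound or more on both arrays. For each gene the signal on array 1 is given before that on array 2. Pbx3, a partner of Hox proteins, had 486.7 and 498.1 in its best probe set and 240.0 and 239.7 in the other. Its relative Pbx2 had 327.6 and 307.9, and all 3 of its probe sets passed. Meis2, which acts in the heart, the neural crest and the forebrain, had 423.4 and 396.4, and all 4 of its probe sets passed. For these 3 genes no probe set lay below the bound on either array. Meis1, which is also a blood stem cell factor, had 205.4 and 205.6 in its best probe set, while 1 of its 3 stayed below the bound at 15.6 and 29.1. Meis3, a gene of the hindbrain in frog and fish, passed narrowly on array 1 at 28.2 and had 48.1 on array 2, and it did not pass with either higher bound tried, the 99th percentile or the array median.

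The Irx genes, which pattern neural tube, heart and limb, lie in a pair of clusters of neighbouring genes. In the cluster of Irx3, Irx5 and Irx6, the first pair was far above the bound and the last was not. Irx3 had signals of 203.7 and 211.1 and Irx5 had 225.9 and 239.5, or at least 6.25 and 7.09 times the bound. Irx6, known from retinal bipolar cells, had 26.6 and 30.1, just under it on both arrays. In the cluster of Irx1, Irx2 and Irx4 all 3 genes passed, Irx1 with 105.2 and 99 and Irx2 with 108.2 and 106.5. Irx4, a gene of the ventricular myocardium, had 29.6 and 35.2, within 1.06 times the bound on each array. In both clusters, then, 1 gene lay close to the bound and the other two at least 2.93 times above it. Irx4 did not pass with the 99th percentile or the array median as bound, and Irx6 passed with the 90th percentile.

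Of the Six-family genes, Six2, which keeps nephron progenitors of the kidney undifferentiated, had signals of 122.8 and 108.8. Its neighbour Six3, needed for forebrain and eye, had 76.1 and 69.6 in 1 of its 3 probe sets, and the other two were near 0, at 2.2 and 3.9 and at 2.0 and 0.8. The call of Six3 thus rested on 1 probe set and was lost with the median probe set. Six5, which lies beside the myotonic dystrophy kinase gene, had 71.4 and 78.1. Six4, a gene of muscle precursors and sensory ganglia, had 42.3 and 51.1, and 2 of its 4 probe sets passed on both arrays. Six6, a gene of retina, hypothalamus and pituitary, was below the bound at 14.2 and 17.7.

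LIM homeodomain proteins carry a pair of LIM zinc-binding domains besides the homeodomain and specify neurons and organ primordia. Those farthest above the bound were Lhx2, which acts in cortical progenitors, eye and limb, with 158.4 and 175.0, and Isl1, a gene of motor and sensory neurons and heart progenitors, with 114.0 and 121.4. Lhx9, the close relative of Lhx2 that is needed for the gonad, had 58.4 and 68.9. These 3 were the LIM genes at or over 2 times the bound on both arrays.
Another 6 passed with less than 2 times the bound on at least 1 array. Lmx1b, of the dorsal limb and serotonergic neurons, had 60.3 and 59.6, and Lhx6, of cortical interneurons from the medial ganglionic eminence, had 52.4 and 67.6. Lhx3, of motor neurons and pituitary, had 51.0 and 45.7, and Lhx1, of kidney and Purkinje cells, had 49.7 and 49.9. Each of these 4 genes passed through 1 of 2 probe sets, with the other below the bound. Isl2, a motor neuron gene, had 39.0 and 50.3, and Lhx8, of cholinergic forebrain neurons and tooth mesenchyme, had 30.3 and 43.4. Lhx8 no longer passed with the bound at the 99th percentile or the array median, nor did Lhx3 and Lmx1b when the median probe set of a gene was used.
Paralogues did not share their calls throughout. Lhx4, which acts with Lhx3 in pituitary and motor neurons, was below the bound in both probe sets, at 17.1 and 28.4 in the higher. Lhx5, the relative of Lhx1, had 21.3 and 17.8, and Lmx1a, of roof plate and dopaminergic neurons, had 13.3 and 21.4.

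Of the 12 paired-type genes 9 passed. Prrx1, a gene of limb and craniofacial mesenchyme, had signals of 429.6 and 437.5 in its best probe set, and 5 of its 6 probe sets passed. Shox2, of proximal limb, palate and sinoatrial node, had 186.1 and 203.7, with its other probe set below the bound at 20.4 and 13.6. Prrx2, which overlaps with Prrx1 in function, had 120.7 and 128.1, and Pitx1, a determinant of the hindlimb that also acts in the pituitary, had 116.1 and 117.3. These 4 were the paired-type genes at least 2 times above the bound on both arrays. Alx1, of frontonasal mesenchyme, had 43.1 and 48.1 in 1 of 2 probe sets and did not pass by the median probe set, and Alx4, of skull and limb, was below the bound at 15.3 and 16.1.
Hesx1, of anterior forebrain and pituitary, had 51.4 and 60.8, and Pitx3, of lens and midbrain dopaminergic neurons, had 50.2 and 64.5. Phox2a, of noradrenergic and oculomotor neurons, had 34.2 and 66.1, and Otx2, of forebrain and midbrain, had 31.9 and 43.5. All 4 passed under 2 times the bound on both arrays, and Otx2 no longer passed with the bound at the 99th percentile or at the array median. Otx1, the cortical relative of Otx2, stayed below it at 20.1 and 21.1. Rax, which starts eye formation, had 2.4 and 2.7, or 0.09 and 0.08 times the bound.

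Of the other Antennapedia-class genes, Emx2, which patterns the cerebral cortex and is needed for the urogenital system, had signals of 83.6 and 66.6. Its relative Emx1, restricted to the dorsal telencephalon, was below the bound in both probe sets, at 14.7 and 13 in the higher. Barx1, of stomach mesenchyme and molar teeth, had 51.5 and 68.1. En1 and En2, the engrailed genes of the border of midbrain and hindbrain, lay on either side of the bound by a small margin. En2 passed with 34.4 and 37.8, though not with the bound at the 99th percentile, and En1 had 31.8 and 33.4, above the bound on array 1 only. Gbx2, of the anterior hindbrain and thalamus, had 15.9 and 18.5.

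All 6 NK genes among the members were below the bound on both arrays. Each had 1 probe set, and of all genes with 1 probe set 48.6% passed. Among the other homeobox genes measured, Nkx2-3 (69.5 and 78.6) and Nkx2-6 (39.9 and 71.5) passed. Nkx1-2 (4.6 and 18.1), Nkx2-4 (5.3 and 8.8), Nkx2-9 (4.9 and 4.2) and Nkx6-3 (13.9 and 15.4) did not. Most Nkx genes measured were thus below the bound, though not all. Nkx2-5, the cardiac gene, came nearest with 27.5 and 27.3. Nkx6-1, of ventral neural tube and pancreatic beta cells, had 21.8 and 23.8, Nkx2-1, of thyroid, lung and ventral forebrain, had 13.7 and 24.3, and Nkx2-2, of ventral neural tube and pancreas, had 11.3 and 19.6. Nkx3-2, of axial skeleton and gut mesenchyme, had 7.2 and 10, and Nkx6-2, of the neural tube and oligodendrocytes, had 1.4 and 3.2. With 1 probe set per gene, a transcript that the probe set detects poorly and a transcript of low abundance cannot be told apart. Prox1, of lymphatic endothelium, lens and liver, was below the bound in all 3 probe sets, with 20.9 and 19.6 in the highest.

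Markers of the tissues in the embryo were measured as a check of the label. All 18 markers of liver, red cells, skeletal muscle, heart, cartilage, neurons, neural progenitors, epidermis and endothelium passed, including the heart genes Myh6 (183.9 and 235.2) and Nppa (91.6 and 81.3), whereas Nkx2-5 did not. None of the 3 measured genes of photoreceptors and spermatids passed, nor did the trophoblast gene Tpbpa (0.8 and 5.8). Sag had 13.6 and 7.9 and Tnp1 had 7.0 and 7.3. The spermatid gene Prm1 lay just under the bound at 27.6 and 32.8, and would pass with the 90th percentile bound of 22.4 and 28.8. Members that passed narrowly, such as Irx4 (29.6 and 35.2), lay little above it.

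Most genes listed as cofactors were detected. Of 27 measured cofactor genes 23 (85.2%) were above background on both arrays, beside 66.0% of the members and 65.5% of all genes. These shares were not weighted by the number of probe sets, and many of the cofactor genes had several. All 10 genes listed as LIM cofactors passed. Among them were the adaptor genes Ldb1 (150.9 and 138.6) and Ldb2 (189.5 and 172.3) and the Ldb-binding genes Ssbp2 (380.0 and 401.9) and Ssbp3 (575.6 and 534.7). This list also holds the Lmo genes and Rlim, so it is wider than the Ldb complex alone. Of the Eya and Dach genes, cofactors of Six-family proteins, 4 of 6 passed, with Eya1 at 57.5 and 70.9, Eya3 at 187.0 and 177.1, Eya4 at 60.3 and 47.8 and Dach1 at 75.3 and 86.1. The exceptions were Eya2 (4.2 and 1.7) and Dach2 (27.2 and 26.2). Engrailed and NK proteins recruit Groucho corepressors. Of 6 genes listed under this family name, not all of which need act in that way, 5 passed. They included Tle1 (213.7 and 210.0), Tle2 (39.5 and 50.9), Tle3 (397.6 and 387.2) and Tle4 (323.4 and 310.1). Tle6 was above the bound on array 1 only, at 34.2 and 16.1. Of 5 further TALE genes measured, Pknox1 (145.8 and 97.9), Pknox2 (101.2 and 114.1), Tgif1 (48.2 and 52.6) and Tgif2 (228.0 and 222.0) passed and Pbx4 did not, at 2.3 and 18.9. Among 68 other homeobox genes outside Hox, 30 were above background (44.1%).

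Transcripts from the opposite strand of members were measured in 5 cases. Lhx1os was above the bound at 45.2 and 56.7, as was Lhx1. Emx2os (17.6 and 8.4), Six3os1 (15.5 and 7.1) and Otx2os1 (10.4 and 4.4) were below it although Emx2, Six3 and Otx2 passed. Prox1os was below it at 18.1 and 16, as was Prox1. A call on the strand of the gene was thus shared by its opposite strand in 2 of 5 pairs.

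Several calls rested on 1 of several probe sets. Of 86 member probe sets 51 (59.3%) were above the bound on both arrays, against 55.6% of 34958 probe sets with 1 symbol. Of the 19 members with 2 or more probe sets, 11 had probe sets on both sides of the bound. The same share over all genes with 2 or more probe sets was not computed, so this count is not particular to the members. In Prrx1, for example, 1 probe set had 8.8 and 4.4 beside 5 that passed, and in Alx1 the second had 2.1 and 7.6. In Lmx1b it had 19 and 6.1, and in Lhx6 it had 11.8 and 15.4. A gene below the bound with a single probe set, as with the NK genes, leaves no second measurement to set beside it.

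**Figure D4:**
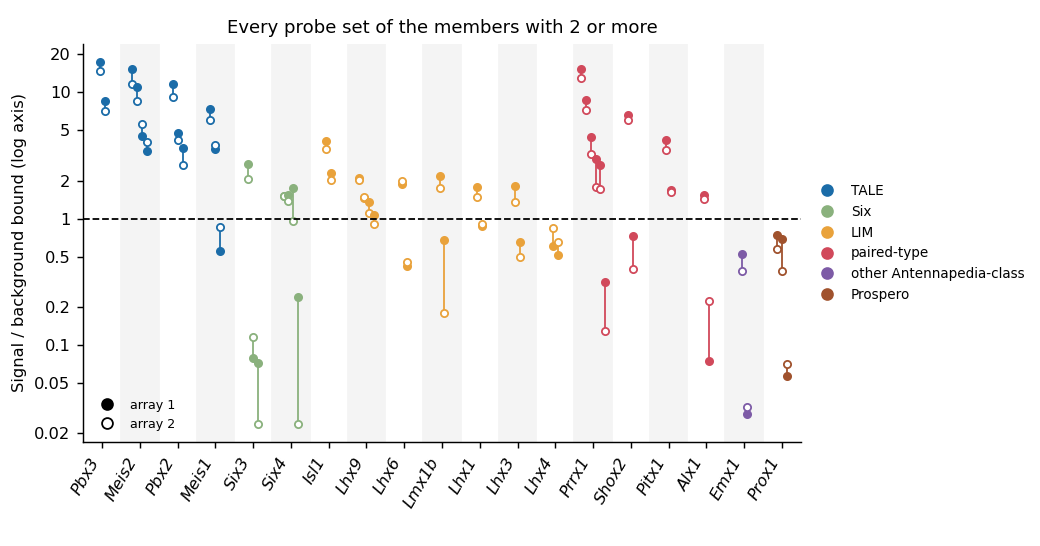
Signal of every probe set of the 19 members with 2 or more, as a multiple of the bound (log axis), with filled points for array 1, open points for array 2 and a line between the arrays. The dashed line marks the bound; the probe sets of 11 genes lie on both sides of it.

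The duplicates gave close signals for the members. For 48 of 51 member probe sets above the bound on both arrays (94.1%) the difference was no more than 1.5-fold. The other 3 were all higher on array 2, 1 each for Phox2a (34.2 and 66.1), Meis3 (28.2 and 48.1) and Meis2 (125.8 and 189.7). Over all 19434 such probe sets 3.24% were more than 1.5-fold apart, 2.09% higher and 1.14% lower on array 2. Differences were larger near the bound. Among probe sets under 2 times the bound 7.57% were more than 1.5-fold apart, and among those above that level 1.59%. Of the 3 member probe sets, those of Phox2a and Meis3 lay under 2 times the bound.
Above the bound the members leaned towards array 2. The median log2 difference of their 35 shown probe sets, array 2 minus array 1 after centring on all probe sets above the bound, was 0.09 with an SD of 0.26, and 26 of 35 were higher on array 2. All probe sets together had a median of 0.00 and an SD of 0.25. Near the bound the median was 0.24 for 23 member probe sets and 0.06 for all, and at 2 times the bound or more it was 0.03 for 28 member probe sets and -0.01 for all. The median of the members was thus farther from that of all probe sets near the bound than at higher signals. The bounds were 27.9 on array 1 and 33.8 on array 2, so near them the filter itself favoured probe sets higher on array 2. Without the filter, and with 16 added to each signal, the median over all 53 members was 0.06. Whether the lean differs from that of other genes was not tested, nor was the part of the filter in it.
Probe sets of 1 gene did not always differ in the same way. For Meis2 the strongest pair had log2 differences of -0.09 and -0.08, and the other two had 0.59 and 0.51. For Prrx1 the strongest pair had 0.03 and 0.02, and the next 3 had -0.16, -0.47 and -0.37.

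**Figure D5:**
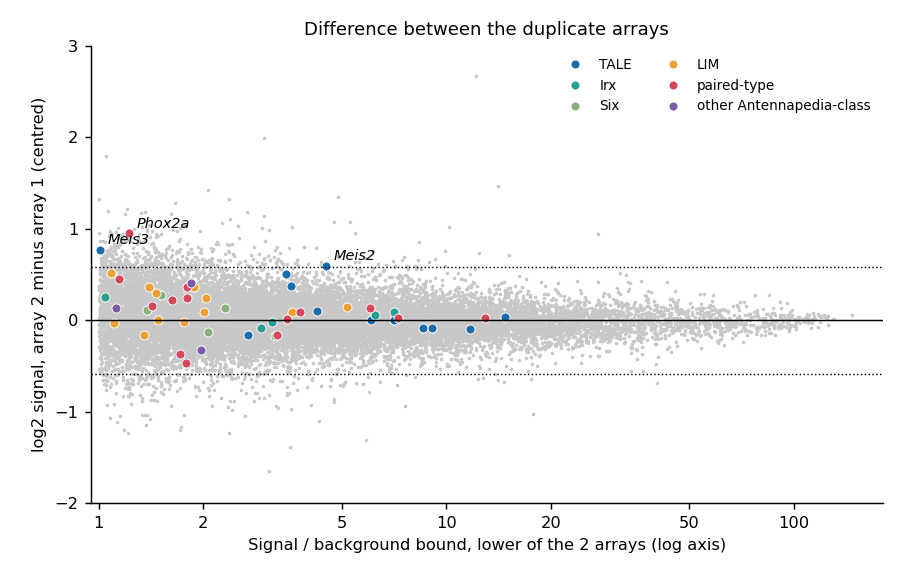
Difference in log2 signal between the arrays (array 2 minus array 1, centred) against the lower of the signals relative to the bound on a log axis, for 51 member probe sets coloured by subfamily and all 19434 probe sets above the bound on both arrays (grey). Dotted lines mark 1.5-fold; 3 member probe sets, of Phox2a, Meis3 and Meis2, lie above the upper line and none below the lower.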

How the data were processed

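Biotin-labelled RNA of E14.5 whole embryos, isolated with RNAzol, was hybridised to 2 Affymetrix arrays of the Mouse Genome 430 2.0 type. The authors made the deposited signal intensities, which are linear and not logged, with GCOS 1.3, a program named in the submitters' processing notes. Both arrays had a mean of 100 after trimming of 2% at each end. Detection calls and scanner images were not used here, so a receptor-based bound took their place. The number of arrays limits the precision.

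Gene names come from the platform annotation. A RefSeq table (GRCm38.p6), used for names, gene order and promoters, gave the present symbol for 34754 of the 34958 probe sets that list a single symbol. The 932 that list several and the 9211 absent from the annotation used here named no gene. A gene is shown by its probe set with the highest mean signal. All members are named, and cofactor genes are the first 4 measured of each list plus exceptions of 5 or fewer. Prrx1, Alx1, Lmx1b and Lhx6 were taken as examples of split probe sets after their values were seen. So were the 4 genes whose CpG counts stand beside the printed promoters, and the Nkx genes named from the other homeobox genes. The members and lists were chosen with earlier results of these data known. No p-value was computed. The steps were tested on simulated arrays. Expressed genes were set there at about 4 times the bound, so calls of expressed genes nearer to it were not tested. Alternatives were other bounds, the same probe set on both arrays, probe sets open to cross-hybridisation left out, the median probe set, each array alone and, for differences, other scalings. Python 3.11.15, pandas 2.3.3, numpy 2.4.6, scipy 1.17.1 and matplotlib 3.10.9 were used.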

Additional observations from a re-analysis of the deposited data

How the results depend on the processing

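The number of members above background was 35 of 53 as reported, beside 65.5% of all genes. Over 8 alternatives it ranged from 30 with the bound at the 99th percentile to 37 with the 90th. All genes passed in 61.9% and 68.8% of cases with these bounds. With the array median as bound 31 members and 64.0% of all genes passed, and with the median probe set 31 and 57.6%. With array 2 alone the number was 35, beside 66.8% of all genes, and with array 1 alone 36, beside 69.0%. Every count by subfamily, of cofactors, of other homeobox genes and of probe sets stayed within 1.5 times its value, and the NK count was 0 under all 8. Of the 53 members, 26 were above and 16 below the bound under all of them, and 11 changed side at least once. With the 99th percentile bound the log2 signal over the bound on the lower array became -0.16 for Lhx8, -0.23 for Irx4, -0.27 for Meis3, -0.089 for Otx2 and -0.13 for En2. With the array median as bound it became -0.079 for Lhx8, -0.11 for Irx4, -0.18 for Meis3 and -0.0045 for Otx2. With the median probe set of a gene in place of the highest it became -0.11 for Lhx3, -0.041 for Lmx1b, -3.66 for Six3 and -0.30 for Alx1. By construction these 3 alternatives raise the bound or count the weaker probe sets. Irx6 and En1 passed with the 90th percentile bound, and En1 also with array 1 alone. The median difference between the arrays stayed between 0.06 and 0.13 over its 6 alternatives. No paired analysis was possible because both arrays belong to 1 group. Below the bound a signal says nothing about absence, and 1 probe set cannot be checked against another.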
